A study of Mus musculus with 20 samples.

Results

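The 10 genes described here encode the AP-1 factors Jun, Junb, Jund, Fos, Fosb, Fosl2 and Atf3 and the early growth response factors Egr1, Egr2 and Egr3. They were chosen by name, and all 10 were found among the 55487 gene identifiers of the deposited count table. The filter on low counts kept 9 of them among the 16595 genes tested, and Fosb was left out by it. AP-1 is a dimer of basic leucine zipper proteins in which a Jun protein pairs with another Jun, a Fos or an ATF protein, while Egr proteins bind DNA through zinc fingers. Many of these genes are immediate early genes, which are transcribed within minutes of a signal through kinases such as ERK, JNK and p38 and need no new protein for it. In microglia, the resident macrophages of the brain, they also respond to tissue dissociation and to inflammatory stimuli.

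Bulk RNA was measured in 20 libraries from 10 mice, with 1 cortex-labelled and 1 brainstem-labelled library of microglia per mouse. The 5 mutants, labelled Braf VE; CX3 HET, carried Cx3cr1-CreER and a Braf LSL-V600E allele, which encodes a permanently active RAF kinase above ERK once Cre has removed a stop cassette. They were M1376 and M1524 at the stage labelled end-stage and M2617, M2621 and M2624 at 2 months. The 5 controls were M1375 and M1521 at end-stage and M2618, M2629 and M2633 at 2 months. All but M1375 were labelled Braf WT; CX3 HET, so that they carried Cre without the mutant allele, and M1375 was labelled Braf VE; CX3 WT, so that it carried the mutant allele without Cre. Pregnant dams of all groups had received 1 dose of 4-hydroxytamoxifen, an activator of CreER, at 37.5 mg per kg on embryonic day 9.5. The recombined cells descend from progenitors that expressed Cx3cr1 at that time. The ages of the end-stage mice and how the cells were isolated are not stated in the labels.

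The labels and the data set limits on 2 groupings. Among the 6 younger mice, genotype can be read from the mouse number that the count column carries or from the sample record in which that column name stands, and the readings differ for 4 mice, M2617, M2618, M2621 and M2633. For M2629 both readings give control, although the title of its sample record carries the number M2633. Genotype was read here by the mouse number, and the reading by the sample record is given beside the calls that rest on 2-month libraries. All 9 microglial markers were detected in every group, and their summed level ranged from 41200 to 70390 CPM, the count scaled to a common library size. The region labels did not match the Hox genes, which mark hindbrain. The summed level of 39 Hox genes was 0.429 to 1.90 CPM in brainstem-labelled libraries and 0.818 to 4.31 CPM in cortex-labelled libraries. In 8 of 10 mice it was higher under the cortex label. Sums this low over 39 genes rest on few counts, so they are a weak check of the labels. The myelin genes Mobp, Mog and Mbp were also lower in brainstem-labelled libraries, so the regions are called by their labels. Totals ran from 9395203 to 21171114 counts per library, and a count of 0 allows up to 3 counts, or 0.147 to 0.318 CPM. The count table does not separate the mutant base of Braf from the normal one, and total Braf stood at 5.74 to 33.1 CPM.

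Levels differed widely between the members. Per kilobase of annotated exon and averaged over the 20 libraries, Junb was highest at 201.3 CPM per kb, ahead of Jund at 52.4, Jun at 34.0, Atf3 at 12.9 and Egr1 at 8.45 CPM per kb. Egr2 averaged 2.93, Fos 1.65, Fosl2 0.917 and Egr3 0.280 CPM per kb. In the end-stage cortex-labelled mutants this order changed, with Atf3 at 46.7 and Egr1 at 35.65 CPM per kb above Jund at 27.3 and Jun at 19.8 CPM per kb. In the matching controls Atf3 stood at 14.2 and Egr1 at 1.21 CPM per kb, below Jund at 54.4 and Jun at 49.5 CPM per kb. Fosb, which encodes a further Fos protein, was close to absent: 16 of 20 libraries held 0 counts, the other 4 held at most 6, and the total was 15. The strand setting is not given, so reads of 3 members inside an overlap cannot be told apart from a neighbour's on the opposite strand. Jun overlaps the antisense gene Junos over 232 of its 3189 exonic bases, and Jund overlaps Gm11175 over 877 of 1668. Junb overlaps Prdx2 over 173 of 2301.

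**Figure D1:**
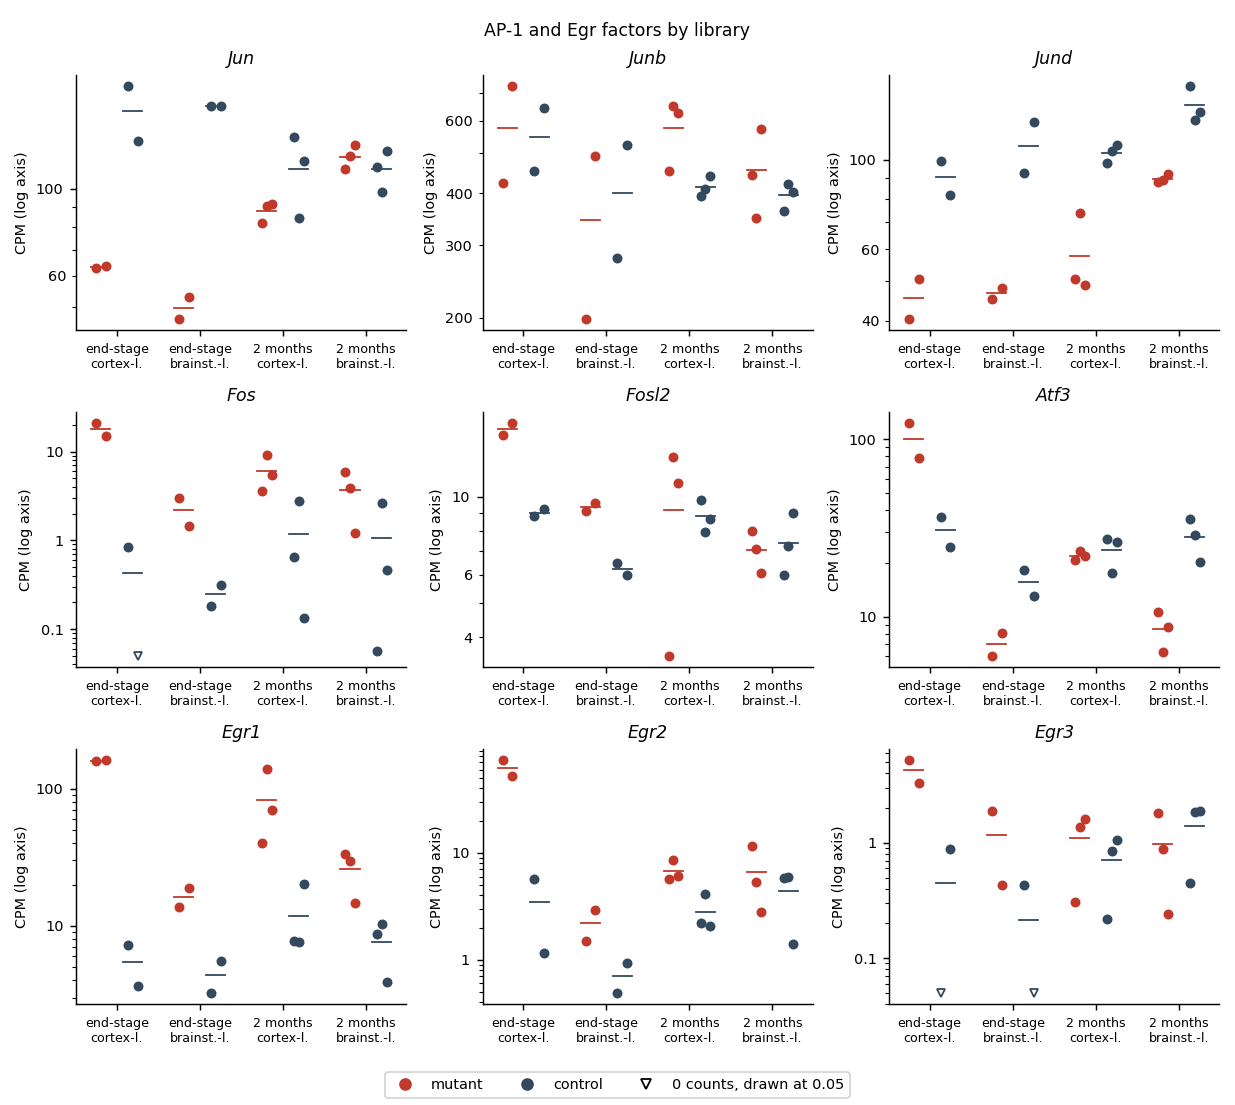
CPM on a log axis in each library for the 9 tested members, with mutants left of controls in each stage and region label; points are libraries and lines are group means. Egr1 and Egr2 were highest in the 2 end-stage cortex-labelled mutants, where Egr1 stood at 159 and 161 CPM, and Jun was lowest in the 4 end-stage mutant libraries, at 46.7 to 63.4 CPM.

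In end-stage cortex-labelled libraries, Egr1, Egr2, Fos and Atf3 were higher in mutants and Jun and Jund were lower. These were 6 of the 9 tested members, against 4.01% of all genes tested, by an adjusted p under 0.05 in edgeR's quasi-likelihood test with Benjamini-Hochberg adjustment over all genes. The median log2 difference, mutant minus control, was 1.72 over the tested members and 0.02 over all genes. In bulk libraries, fewer cells of a type and less RNA per cell cannot be told apart. The p-values measure the spread between libraries of different mice within groups, pooled over the 8 groups. Both libraries of a mouse count there as independent, except in fits with a replicate block.

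Jun, the founding AP-1 protein and a substrate of JNK, had 62.8 CPM in the mutant M1376 and 63.4 CPM in the mutant M1524, against 183 CPM in the control M1375 and 132.6 CPM in the control M1521. Both mutants lay below both controls. The log2 difference was -1.32 ± 0.205 (SE, adjusted p = 0.00153). Jund, a Jun protein that is usually present without stimulation, followed with 40.4 and 50.7 CPM in mutants, against 99.6 and 81.8 CPM in controls (-0.99 ± 0.207, adjusted p = 0.011). Its groups did not overlap either. Junb, which can oppose Jun at some promoters, had 424 and 727 CPM in mutants, against 453 and 642 CPM in controls, so the groups overlapped. Its log2 difference was 0.07 ± 0.366 (adjusted p = 0.955).

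Fos, the partner of Jun in the classical AP-1 dimer, had 20.9 and 14.9 CPM in mutants, from 384 and 229 counts. In controls it had 0.847 CPM in M1375, from 8 counts, and 0 in M1521. The fitted log2 difference was 5.53 ± 1.52 (adjusted p = 0.0491), and with controls at or near 0 counts its size depends on single mice: it was 11.28 without M1375 and 4.39 without M1521. Fosl2, a Fos protein that appears later than Fos after a stimulus, had 14.99 and 16.1 CPM in mutants, against 8.79 and 9.24 CPM in controls. Its groups did not overlap, and the difference of 0.79 ± 0.415 did not pass (adjusted p = 0.339).

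Atf3, a stress-induced factor that can repress inflammatory genes in macrophages, had 123 and 78.3 CPM in mutants, against 36.6 and 24.7 CPM in controls. The lower mutant was above the higher control, and the log2 difference was 1.72 ± 0.33 (adjusted p = 0.0066). Egr1, a transcriptional output of ERK signalling, had 159 and 160.7 CPM in mutants, against 7.20 and 3.63 CPM in controls. These mutants exceeded every other library of the series in Egr1, and the log2 difference was 4.91 ± 0.68 (adjusted p = 0.000536). Egr2, which is linked to macrophage activation and to Schwann cell myelination, had 73.1 and 51.8 CPM in mutants, against 5.72 and 1.16 CPM in controls, again without overlap (4.22 ± 0.801, adjusted p = 0.00598). Egr3 had 5.18 and 3.32 CPM in mutants, against 0 and 0.89 CPM in controls, and its difference of 3.15 ± 1.38 did not pass (adjusted p = 0.24).

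Jun and Egr1 kept their calls without any 1 of the 4 end-stage mice. Without M1376, Atf3 (adjusted p = 0.0874), Jund (0.125) and Fos (0.143) were lost. Without M1521, Atf3 (0.0922), Egr2 (0.0758) and Fos (0.264) were lost, without M1375 Jund (0.109) and Fos (0.112), and without M1524 Fos (0.108). Reading the 2-month genotypes by the sample record changes only the spread shared with this comparison, and under it Egr1 (0.0587), Fos (0.112), Atf3 (0.188) and Jund (0.223) did not pass. In a fit of only the 8 end-stage libraries, chosen after seeing the data, 5 of the 6 passed and Jund did not (0.0565).

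The promoters of the members that moved are of interest because Egr2 and Fos were higher while Jun was lower in the same libraries. RefSeq promoter windows on GRCm38.p6 matched 8 of the 10 members, and Egr1 and Egr3 had no entry. The windows, 300 bases around each start, were searched on both strands for 6 motifs picked after the data were seen: the cyclic AMP response element TGACGTCA, its variants TTACGTCA and TGACATCA, the AP-1 site TGANTCA, the Egr site GCGNGGGCG and the serum response element (CArG box), at which SRF and ELK factors bind. The 250 bases before 3 starts are printed 5′ to 3′ on the gene's strand, with the motif found in capitals: Egr2 from chr10:67537619-67537868 on the plus strand, with a serum response element, 1 of 4 among the 5 Egr2 windows that hold it and shown for that reason; Jun from chr4:95052223-95052472 on the minus strand, with the variant TGACATCA; and Fos from chr12:85473640-85473889 on the plus strand, with none of the 6 in this window.
Egr2: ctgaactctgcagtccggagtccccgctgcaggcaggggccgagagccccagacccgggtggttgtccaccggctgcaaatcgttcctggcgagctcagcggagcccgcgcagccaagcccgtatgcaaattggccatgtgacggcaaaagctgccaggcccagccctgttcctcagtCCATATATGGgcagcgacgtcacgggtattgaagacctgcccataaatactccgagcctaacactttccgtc
Jun: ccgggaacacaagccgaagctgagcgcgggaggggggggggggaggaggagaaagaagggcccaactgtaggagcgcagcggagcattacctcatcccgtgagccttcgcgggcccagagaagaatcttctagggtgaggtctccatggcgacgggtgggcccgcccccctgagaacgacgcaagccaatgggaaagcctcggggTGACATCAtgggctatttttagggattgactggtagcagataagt
Fos: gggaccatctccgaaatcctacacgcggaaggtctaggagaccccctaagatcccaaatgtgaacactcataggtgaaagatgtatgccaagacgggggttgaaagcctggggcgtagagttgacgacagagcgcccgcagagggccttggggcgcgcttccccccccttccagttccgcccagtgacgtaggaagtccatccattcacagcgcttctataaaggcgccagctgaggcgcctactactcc
The serum response element was found in 1.63% of all 32851 promoter windows and TGACATCA in 3.62%. These shares are per window, and Egr2 had 5 windows, some of them overlapping, where each other matched member had 1. The remaining Egr2 window and those of Jund and Junb held none of the 6 motifs. The Jund window, chr8:70697489-70697788, ends before the gene of the annotation used here, which starts at 70698949. Sequence next to that start was therefore not searched. The window of Atf3 held TTACGTCA 10 bases before its start, found in 0.499% of windows, and those of Fosl2 and Fosb held the Egr site, found in 5.55%. All 250 bases before the Fosl2 start, with its Egr site, lie in annotated exon sequence. A match describes letters in a window, and no factor binding was measured. Sequence outside the windows was not searched, so a window without a match, as for Fos, does not show that the gene lacks the element.

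In end-stage brainstem-labelled libraries, Jun and Jund were again lower in mutants and no member was higher. These were 2 of the 9 tested members, against 0.151% of all genes tested. Jun had 46.7 CPM in M1376 and 52.8 CPM in M1524, against 163.1 CPM in M1375 and 163.0 CPM in M1521. The log2 difference was -1.71 ± 0.207 (adjusted p = 0.00169), and the 4 end-stage mutant libraries of both labels were the 4 lowest of the 20 in Jun. Jund had 45.1 and 48.2 CPM in mutants, against 92.6 and 124 CPM in controls (-1.21 ± 0.207, adjusted p = 0.0229). No mutant reached a control in either gene.

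The factors that were high in cortex-labelled mutants stood much lower under the brainstem label. Egr1 had 13.7 and 18.8 CPM in mutants, against 3.25 and 5.55 CPM in controls, without overlap, but 1.88 ± 0.612 on the log2 scale did not pass (adjusted p = 0.239). Fos had 2.997 and 1.46 CPM in mutants, against 0.184 and 0.311 CPM in controls (3.12 ± 1.42, adjusted p = 0.459). Atf3 pointed the other way, with 6.05 and 8.08 CPM in mutants, against 18.3 and 13.1 CPM in controls (-1.15 ± 0.335, adjusted p = 0.177). Egr2 at 1.498 and 2.93 CPM in mutants, against 0.49 and 0.933 CPM in controls did not pass (adjusted p = 0.51), nor did Egr3 (0.589), Fosl2 (0.679) or Junb (0.915).

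Jun passed without any 1 of the 4 mice but not in a fit of the 2 compared groups alone (adjusted p = 0.123), and Jund was lost in that fit (0.276). Jund was also lost without M1376 (0.0802), M1521 (0.153) or M1524 (0.0944), in the 8 end-stage libraries alone (0.146) and under the record reading (0.554).

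**Figure D2:**
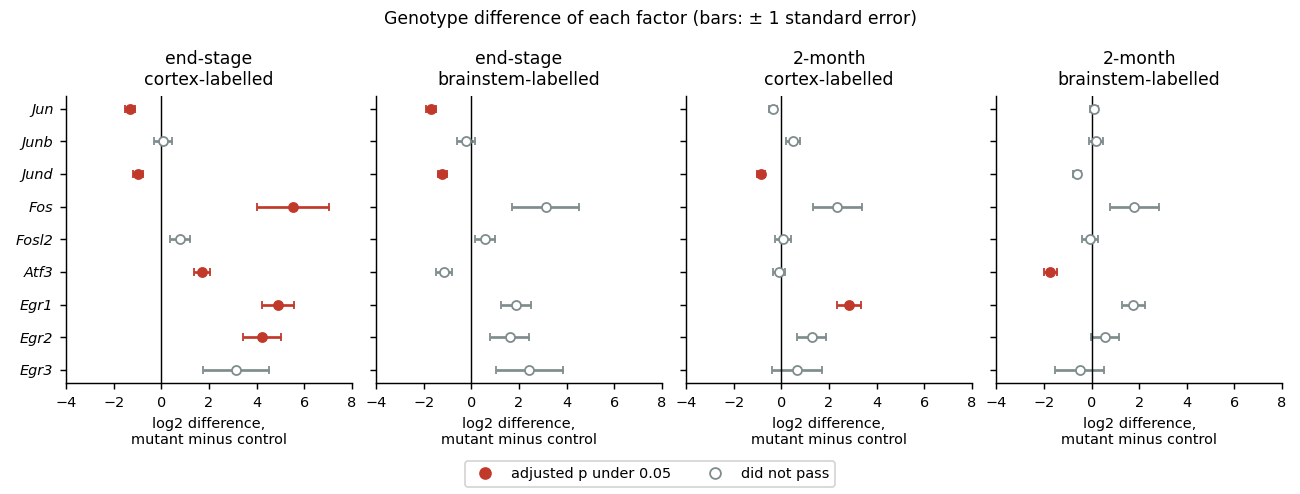
Log2 difference, mutant minus control, of the 9 tested members in each stage and region label, with bars of 1 standard error and filled points where the adjusted p was under 0.05. Jun was lower in end-stage mutants under both labels, at -1.32 and -1.71, while Egr1 passed in the cortex-labelled libraries of both stages, at 4.91 and 2.82.

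At 2 months, Egr1 was higher and Jund lower in cortex-labelled mutants, 2 of the 9 tested members against 5.45% of all genes tested. Egr1 had 40.4 CPM in M2617, 139.5 CPM in M2621 and 69.96 CPM in M2624, against 7.71 CPM in M2618, 7.61 CPM in M2629 and 20.15 CPM in M2633. The lowest mutant was above the highest control, and the log2 difference was 2.82 ± 0.497 (adjusted p = 0.00285). Jund had 50.7, 74.0 and 48.9 CPM in mutants, against 98.3, 105.1 and 108.6 CPM in controls (-0.85 ± 0.168, adjusted p = 0.00596). Its groups did not overlap.

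The other members did not pass in these libraries. Fos had 3.61, 9.12 and 5.51 CPM in mutants, against 0.656, 2.75 and 0.132 CPM in controls, without overlap (2.33 ± 1.03, adjusted p = 0.214). Egr2 had 5.68, 8.51 and 6.13 CPM in mutants, against 2.19, 4.16 and 2.05 CPM in controls, also without overlap (1.27 ± 0.594, adjusted p = 0.247). Jun overlapped, with 82.0, 90.3 and 91.5 CPM in mutants, against 135.6, 84.5 and 117.9 CPM in controls (-0.36 ± 0.165, adjusted p = 0.238). Atf3 stood at 20.8 to 23.6 CPM in mutants, against 17.6 to 27.4 CPM in controls (adjusted p = 0.885). Junb (0.47 ± 0.299, adjusted p = 0.424) lay higher in every mutant without passing, and Fosl2 (0.959) and Egr3 (0.813) overlapped.

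In 2-month brainstem-labelled libraries 1 of the 9 tested members passed, against 0.0362% of all genes tested. Atf3 was lower in mutants, with 10.6 CPM in M2617, 6.34 CPM in M2621 and 8.78 CPM in M2624, against 35.6 CPM in M2618, 28.9 CPM in M2629 and 20.3 CPM in M2633. No mutant reached a control, and the log2 difference was -1.73 ± 0.276 (adjusted p = 0.033). Jund had 88.0, 88.9 and 92.1 CPM in mutants, against 152.1, 125.6 and 131.6 CPM in controls (-0.61 ± 0.167, adjusted p = 0.212). Egr1 had 33.1, 29.9 and 14.7 CPM in mutants, against 8.71, 10.3 and 3.91 CPM in controls (1.76 ± 0.488, adjusted p = 0.212). Both pairs of groups were apart without passing. Jun (0.89), Junb (0.89), Fos (0.666), Egr2 (0.82), Egr3 (0.928) and Fosl2 (0.972, all adjusted p) overlapped between the groups.

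The reading of the 2-month genotype decides these results. By the sample record, Egr1 in cortex-labelled libraries turned to -0.94, Jund to 0.15 and Atf3 in brainstem-labelled libraries to 0.50 on the log2 scale, each with an adjusted p of 1. The 2 mice on which both readings agree had 69.96 CPM of Egr1 in the cortex-labelled library of the mutant M2624 and 7.61 CPM in that of the control M2629, and 48.9 and 105.1 CPM of Jund. With the 4 other mice left out, an alternative added after seeing the data, the difference was 3.21 for Egr1 (adjusted p = 0.152) and -1.10 for Jund (0.502), and for Atf3 in brainstem-labelled libraries -1.73 (0.804). Egr1 and Jund kept their calls without any 1 of the 6 mice. Atf3 lost its call without M2617 (0.0612), M2618 (0.146), M2621 (0.0961), M2624 (0.121), M2629 (0.0514) or M2633 (0.0557), and with the mouse as a correlated replicate block in limma-voom (0.0753).

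**Figure D3:**
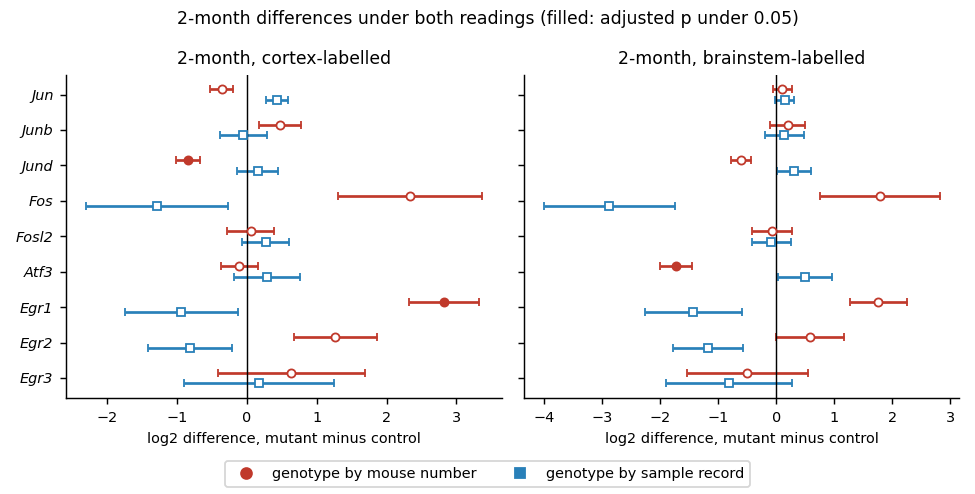
Log2 difference, mutant minus control, at 2 months under both readings of genotype, with bars of 1 standard error and filled points where the adjusted p was under 0.05. Egr1 in cortex-labelled libraries was at 2.82 by the mouse number in the column name and at -0.94 by the sample record, where no member passed.

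The genotype difference of Atf3 depended on the region label at end-stage, and it was the 1 tested member that passed in this test, against 0.0844% of all genes tested. Its difference was -1.15 under the brainstem label and 1.72 under the cortex label, which differ by -2.87 ± 0.47 on the log2 scale (adjusted p = 0.017). With the mouse as a fixed replicate block, since both libraries of a mouse share the animal, the value was -2.84 (adjusted p = 0.0168). It did not pass without M1375 (0.297), M1376 (0.375) or M1521 (0.139), in the 8 end-stage libraries alone (0.178) or under the record reading (0.717). The difference between the labels was -3.03 ± 0.864 for Egr1 (adjusted p = 0.388), -2.60 ± 1.11 for Egr2 (0.886) and -2.42 ± 2.04 for Fos (1). At 2 months 0 of the 9 tested members passed in edgeR's test, against 0.0241% of all genes tested, or 4 genes. There 1381 genes had an unadjusted p under 0.05, and DESeq2 called 100 genes and 1 member. Atf3 was at -1.62 ± 0.379 (adjusted p = 0.261), and at 0.21 under the record reading, where the adjusted p of every tested member was 1.

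Within the mutants, Atf3 and Egr2 were higher at end-stage than at 2 months in cortex-labelled libraries, 2 of the 9 tested members against 1.84% of all genes tested. Atf3 averaged 100.6 ± 31.5 CPM at end-stage (SD, n = 2) and 22.1 ± 1.38 CPM at 2 months (SD, n = 3), a log2 difference of 2.19 ± 0.291 (adjusted p = 0.00107). Egr2 averaged 62.5 ± 15.1 CPM at end-stage and 6.77 ± 1.52 CPM at 2 months (3.20 ± 0.644, adjusted p = 0.0148). Egr1, at 159.9 ± 1.16 CPM at end-stage and 83.3 ± 50.8 CPM at 2 months, did not pass (0.94 ± 0.505, adjusted p = 0.431). Egr2 lost its call without M1376 (0.134), M2621 (0.0613) or M2624 (0.0534), and Atf3 lost its call under the record reading (0.0628), where Egr2 passed at 4.17 (0.00716) and Jun passed as well at -0.87 (0.0261). Markers of other cells moved in the same comparison, with Fn1 of monocytes and Cspg4 of oligodendrocyte precursors higher and Plac8, Klrd1, Pecam1 and the microglial P2ry12 lower at end-stage. Fn1 and Cspg4 ran against the medians of their lists. The median log2 difference was -2.14 over the 6 measured monocyte markers and -1.75 over the 4 measured precursor markers. The 7 monocyte markers summed to 198 and 980 CPM in end-stage mutants and to 132 to 184 CPM in 2-month mutants, and their part in the members' differences was not tested.

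In brainstem-labelled mutants, Jun was the 1 tested member that passed, against 0.0422% of all genes tested. It averaged 49.8 ± 4.36 CPM at end-stage (n = 2) and 121 ± 8.51 CPM at 2 months (n = 3), a log2 difference of -1.28 ± 0.192 (adjusted p = 0.0201). Jund, at 46.7 ± 2.20 CPM at end-stage and 89.6 ± 2.14 CPM at 2 months, did not pass (-0.94 ± 0.192, adjusted p = 0.0848). The call of Jun was lost without M1376 (0.271), M1524 (0.0948), M2617 (0.0588) or M2624 (0.111), and it held under the record reading at -1.30 (0.0132). None of the markers of any listed cell type passed in this comparison.

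Control mice gave no call between the stages. In edgeR's test 0 of the 9 tested members passed under either label, against 0% of all genes tested in both. Unadjusted p-values under 0.05 were found in 1432 genes under the cortex label and 1367 genes under the brainstem label, and DESeq2 called 44 and 69 genes. Jun averaged 163 ± 0.0397 CPM at end-stage and 112.2 ± 13.2 CPM at 2 months in brainstem-labelled controls (0.54 ± 0.182, adjusted p = 0.51). The difference of the genotype differences between the stages passed for Jun in brainstem-labelled libraries, at -1.82 ± 0.262 (adjusted p = 0.0361), and Jun was the 1 gene that passed, or 0.00603% of all genes tested. This test uses the same libraries as the comparisons above. It passed under both readings, and without M2629 (0.0279), but not without M1375 (0.178), M1376 (0.292), M1521 (0.0929), M1524 (0.107), M2617 (0.0696), M2618 (0.0753), M2621 (0.128), M2624 (0.143) or M2633 (0.0601). In cortex-labelled libraries 0 of the 9 tested members passed that test in edgeR, against 0.265% of all genes tested, or 44 genes, while 1645 genes had an unadjusted p under 0.05 and DESeq2 called 239 genes and 2 members. Atf3 was at 1.82 ± 0.42 (adjusted p = 0.086). Under the record reading Jun (-1.75, adjusted p = 0.0082) and Egr2 (5.03, 0.0322) passed there.

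Over both genotypes and stages, Atf3, Egr1 and Egr2 were lower and Jund was higher under the brainstem label than under the cortex label. These were 4 of the 9 tested members, against 14% of all genes tested. Atf3 was lower in the brainstem-labelled library of 8 of 10 mice, in all 5 mutants and in 3 of 5 controls (-1.48 ± 0.152 on the log2 scale, adjusted p = 9.49e-06). Egr1 was lower there in 7 of 10 mice, in all 5 mutants and in 2 of 5 controls (-1.47 ± 0.275, adjusted p = 0.00185). In the end-stage mutant M1376, Egr1 had 13.7 CPM in the brainstem-labelled and 159 CPM in the cortex-labelled library, while the 2-month mutant M2617 had 33.1 and 40.4 CPM. Egr2 was lower in 7 of 10 mice, in 4 of 5 mutants and in 3 of 5 controls (-1.61 ± 0.346, adjusted p = 0.0048). Its means under the brainstem and cortex labels were 2.21 and 62.5 CPM in end-stage mutants and 0.71 and 3.44 CPM in end-stage controls. At 2 months they were 6.55 and 6.77 CPM in mutants, and 4.37 and 2.80 CPM in controls, where the direction was opposite. Jund was higher in the brainstem-labelled library of 8 of 10 mice (0.33 ± 0.0934, adjusted p = 0.0254). Other genes of these kinds moved with the label too, against 7.53% of all genes lower and 6.51% higher. Of 32 other measured immediate early genes 11 were lower and 1 was higher under the brainstem label, with a median log2 difference of -0.29. Of 17 measured genes linked to AP-1 11 were lower and 0 higher, with a median of -1.58. Of 13 measured heat shock genes 1 was lower.

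Junb was lower in the brainstem-labelled library of 9 of 10 mice without passing (-0.40 ± 0.167, adjusted p = 0.126). With the mouse as a fixed replicate block the 4 called members kept their calls, at -1.48 for Atf3 (adjusted p = 1.76e-05), -1.42 for Egr1 (0.00366), -1.62 for Egr2 (0.00335) and 0.33 for Jund (0.027). Atf3 and Egr1 passed without any 1 mouse. Egr2 was lost without M1375 (0.0714), and Jund without M1376 (0.0834), M1521 (0.176), M1524 (0.0541), M2617 (0.0505), M2618 (0.0606) or M2624 (0.051) and under the record reading (0.252), where Atf3 (-1.37, adjusted p = 0.00494), Egr1 (-1.70, 0.0333) and Egr2 (-1.70, 0.00698) passed.

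Markers of several cell types moved with the region label in the same fit. Lower under the brainstem label were Fn1 and Ms4a6c of monocytes, Siglec1 and Ms4a7 of border-associated macrophages, Aldh1l1, S100b and Gfap of astrocytes and Cspg4 of oligodendrocyte precursors. Higher there were the microglial P2ry12, Fcrls and Sall1, with Klrd1, Ighm and Pecam1. The 7 monocyte markers summed to 25.5 to 124 CPM in brainstem-labelled and 18.6 to 980 CPM in cortex-labelled libraries, and the 8 markers of border-associated macrophages to 1.41 to 37.5 CPM and 2.79 to 278 CPM. The 9 microglial markers summed to 46000 to 70390 CPM in brainstem-labelled and 41200 to 59440 CPM in cortex-labelled libraries. Myelin and Hox transcripts ran against the labels, and the part of all these in the members' differences was not tested.

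**Figure D4:**
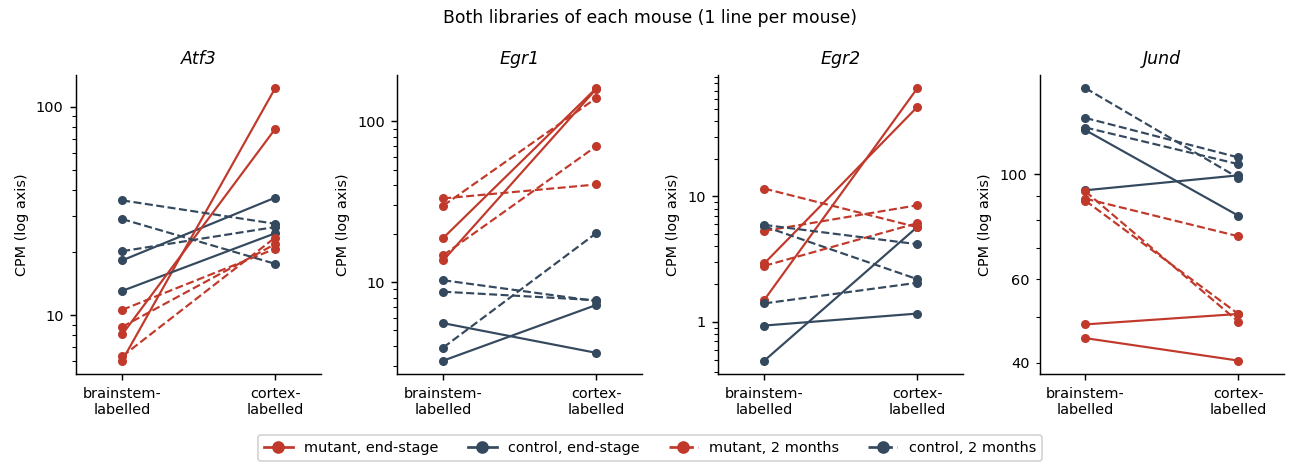
CPM on a log axis in the brainstem-labelled and the cortex-labelled library of each mouse, joined by 1 line per mouse, with mutants in red and end-stage as solid lines. Atf3 was lower in the brainstem-labelled library of all 5 mutants, by 10.2 CPM in M2617 at the least, and of 3 of 5 controls.

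Of 24 measured bZIP partners of the members, 2 were higher and 1 lower in end-stage cortex-labelled mutants, against 1.83% of all genes higher and 2.18% lower, with a median log2 difference of 0.31. The small Maf protein Maff stood at 6.76 ± 3.32 CPM in mutants, against 0.38 ± 0.237 CPM in controls (n = 2 each, errors are SD; adjusted p = 0.0178). Bach1, a repressor of Hmox1, was lower, at 15.1 ± 0.25 CPM in mutants, against 28.7 ± 11.3 CPM in controls (adjusted p = 0.0481). Nab2, a corepressor of Egr proteins and itself an Egr target, was 1 of 2 measured genes of its list to pass, with 71.7 ± 4.28 CPM in mutants, against 26.4 ± 2.81 CPM in controls (1.44 ± 0.308, adjusted p = 0.0127). Of 24 upstream kinases and SRF or ELK factors, 0 passed in edgeR's test and 1 in DESeq2, where 2951 genes in all had an unadjusted p under 0.05 in edgeR. The count of bZIP partners called was 0 without M1375, 1 without M1521 and 0 without M1524 or under the record reading. It was 7 in DESeq2, which called 1219 genes in all. Nab2 did not pass without M1375, M1376 or M1524 or under the record reading.

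Of 17 measured genes linked to AP-1, 8 were higher and 1 was lower in end-stage cortex-labelled mutants, against 1.83% of all genes higher and 2.18% lower, and their median log2 difference was 2.64. Fth1, the ferritin heavy chain, stood at 6576 ± 342 CPM in mutants, against 2281 ± 210.2 CPM in controls (adjusted p = 0.000304), and Hmox1, heme oxygenase, at 157.7 ± 0.0351 CPM in mutants, against 49.3 ± 6.39 CPM in controls (adjusted p = 0.00224). Lgals3, galectin-3, stood at 129 ± 22.2 CPM in mutants, against 11.1 ± 10.4 CPM in controls (adjusted p = 0.00366). The cytokine gene Il6 was the lower one, with 3.19 ± 2.12 CPM in mutants, against 19.96 ± 0.814 CPM in controls (adjusted p = 0.00427). Without M1375, and under the record reading, 4 of the 9 calls of this list were left. Of 9 genes linked to Egr factors, Nab2 alone passed and the median was 0.54. The list was chosen with results of these data known, so its counts are no independent evidence of a direction.

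At 2 months in cortex-labelled libraries, 5 of the 17 AP-1 linked genes were higher and 1 was lower in mutants, and 4 of the 9 Egr linked genes were higher. Background shares were 3.64% of all genes higher and 1.81% lower. The chemokine gene Ccl2 had 336 ± 267 CPM in mutants, against 7.60 ± 4.84 CPM in controls (n = 3 each, errors are SD; adjusted p = 0.00213), and Il1b had 49.8 ± 10.1 CPM in mutants, against 3.13 ± 0.911 CPM in controls (adjusted p = 0.00111). Fth1 (adjusted p = 0.000571) and the urokinase receptor gene Plaur (0.00944) were also higher. Outside the naming rule, Spp1 was the fifth to be higher (0.0156) and Gclm, a glutathione synthesis gene, the lower one (-0.58 ± 0.16, adjusted p = 0.0421), both chosen after their values were seen. The Egr linked genes that passed were Socs1, a feedback inhibitor of cytokine receptors (36.4 ± 4.15 CPM in mutants, against 15.1 ± 0.874 CPM in controls, adjusted p = 0.0033), the cell cycle inhibitor gene Cdkn1a (0.00929), the adhesion gene Icam1 (0.00956) and Nab2 (0.00975). Mapkapk2, a kinase downstream of p38, was the 1 of 24 upstream genes to pass, with 214 ± 25.3 CPM in mutants, against 131 ± 20.7 CPM in controls (adjusted p = 0.016). None of the bZIP partners passed in edgeR and 1 did in DESeq2, which called 1585 genes in all. In edgeR Maf was nearest (127 ± 21.9 CPM in mutants, against 221 ± 15.5 CPM in controls, adjusted p = 0.0933). Without M2633, 3 AP-1 linked and 2 Egr linked genes were left, Nab2 and Mapkapk2 did not pass without M2621, M2629 or M2633, and 0 genes of these lists passed under the record reading.

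In brainstem-labelled libraries, 0 genes of these lists passed at either stage in edgeR's test, where 1731 genes at end-stage and 1461 at 2 months had an unadjusted p under 0.05. DESeq2 called 4 AP-1 linked genes, 2 bZIP partners and 1 upstream gene at end-stage, among 356 genes in all. At 2 months it called 5, 1 and 1, among 205 genes in all. Limma-voom with the replicate block called 1 AP-1 linked gene at end-stage. At end-stage the lowest adjusted p of the AP-1 linked genes was that of Fth1, at 2712 ± 262 CPM in mutants, against 1405 ± 126 CPM in controls (0.059). Spp1, osteopontin, stood at 123 ± 161 CPM in mutants, against 0.601 ± 0.19 CPM in controls (adjusted p = 0.0793), and Mapkapk2 at 227.5 ± 31.3 CPM in mutants, against 122 ± 28.8 CPM in controls (0.0802). At 2 months Il1b stood at 15.8 ± 12.9 CPM in mutants, against 2.27 ± 0.886 CPM in controls (adjusted p = 0.11).

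Genes that dissociation is known to induce moved in both directions beside the members. Of 32 other measured immediate early genes, 3 were higher and 1 lower in end-stage cortex-labelled mutants, against 1.83% of all genes higher and 2.18% lower, with a median log2 difference of 0.45. Dusp1, a phosphatase of p38 and JNK, stood at 58.97 ± 9.80 CPM in mutants, against 8.72 ± 0.0537 CPM in controls (adjusted p = 0.000122), and Rgs1 (0.00159) and Id2 (0.00981) were higher too. Klf2, a Krüppel-like factor, was lower, at 12.8 ± 2.82 CPM in mutants, against 52.04 ± 26.8 CPM in controls (adjusted p = 0.0316). The summed level of the whole list was 4060 and 4170 CPM in mutants, against 4340 and 4550 CPM in controls. The sum was thus lower in the mutants, while the median log2 difference of 0.45 lay the other way. Neither was tested. Of 13 measured heat shock genes 0 passed in edgeR's test, with a median of -0.17 and sums of 1680 and 2230 CPM in mutants, against 1550 and 2830 CPM in controls. Without M1375 or M1376, 2 of the 4 immediate early genes passed, and DESeq2 called 10 of that list, among 1219 genes in all.

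At 2 months in cortex-labelled libraries, Ier2, Nfkbiz, Socs3 and Myc were higher in mutants, 4 of the 32 with none lower, against 3.64% of all genes higher and 1.81% lower. Ier2 stood at 85.9 ± 41.5 CPM in mutants, against 27.4 ± 7.57 CPM in controls (adjusted p = 0.00446). The sum over the list was 4040 to 4800 CPM in mutants, against 4760 to 5930 CPM in controls, while its median log2 difference was 0.13. Among heat shock genes Hspd1 was higher (83.8 ± 19.3 CPM in mutants, against 53.9 ± 1.74 CPM in controls, adjusted p = 0.0417), and the list summed to 2580 to 4950 CPM in mutants, against 1840 to 3170 CPM in controls. Without M2621 or M2629, 2 of the 4 immediate early genes passed, and Hspd1 did not pass without M2618, M2621, M2624 or M2629. With the correlated replicate block in limma-voom 7 immediate early and 2 heat shock genes passed, and 0 passed under the record reading. In brainstem-labelled libraries 0 genes of either list passed in edgeR's test. There DESeq2 called 3 immediate early genes among 356 genes in all at end-stage, and 2 among 205 at 2 months. Conditions of dissociation are not given, and their part in the members' differences was not tested.

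Markers of other cells also moved with the cortex-labelled mutants. The 7 monocyte markers summed to 198 and 980 CPM in end-stage mutants and 18.6 and 25.5 CPM in end-stage controls, and to 132 to 184 CPM in 2-month mutants and 20.8 to 34.0 CPM in 2-month controls. Fn1 and Ms4a6c passed among 6 measured at end-stage, while Ly6c2 and Chil3, which define classical monocytes, were at 0 in both groups. In 2-month cortex-labelled libraries Ly6c2 had 4 to 22 counts in mutants and 0 to 2 in controls, and Chil3 had 0 to 12 in mutants and 0 to 1 in controls. The 8 markers of border-associated macrophages summed to 58.6 and 278 CPM in end-stage mutants and 22.8 and 28.1 CPM in controls, and none passed. At 2 months they summed to 68.7 to 116 CPM in mutants and 2.79 to 32.4 CPM in controls, where Siglec1 passed among them and Plac8 with Fn1 and Ms4a6c among the monocyte markers. The median log2 difference of the 8 macrophage markers was 0.35 at end-stage and -1.95 at 2 months, where it ran against their sum. That of the 6 measured monocyte markers was 0.21 at end-stage and 3.55 at 2 months. By the sample record, the monocyte sums at 2 months were 20.8 to 159 CPM in mutants and 34.0 to 184 CPM in controls, the sums of border-associated macrophages 2.79 to 116 CPM in mutants and 23.8 to 102 CPM in controls, and no marker of any listed cell type passed. Gfap, Cspg4, Kdr and Flt1, of astrocytes, oligodendrocyte precursors and endothelium, were higher and Pecam1, Klrd1, Cd79b and Ighm, of endothelium and lymphocytes, were lower in end-stage mutants. Cspg4 ran against its list, whose median log2 difference was -1.42 over 4 measured markers. The medians were 0.61 over astrocyte and 0.81 over endothelial markers. The astrocyte markers summed to 735 and 238 CPM in end-stage mutants, against 132.5 and 1136 CPM in controls, so the groups overlapped. At 2 months Kdr and Flt1 were higher and Cd79b was lower in mutants. Of the 9 microglial markers P2ry12, Fcrls and Sall1 were among those lower in end-stage mutants, and P2ry12 and Sall1 at 2 months. Under the brainstem label none of these markers passed at either stage. The part of these cells in the members' differences was not tested.

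Across the 20 libraries, which share genotype groups, mice and depth, some members ran together and others did not. The log2 CPM of Egr1 correlated with that of Egr2 at r = 0.83 and with that of Fos at r = 0.82, and Jun with Jund at r = 0.75. Jund ran against Egr1 (r = -0.66) and Fos (r = -0.63), and Jun against Fos (r = -0.60). Junb followed neither Jun (r = 0.09) nor Jund (r = -0.09) or Fos (r = 0.15), and Atf3 stood at r = -0.02 with Jun, -0.09 with Jund, 0.14 with Fos and 0.59 with Egr2. The genes most like Egr1 among those tested were Fth1 (r = 0.907), Ier2 (0.897) and Rpsa (0.896), and those most like Egr2 were Ccl4 (0.881), Tgfbi (0.867) and Lpl (0.844). Jund was most like Commd6 (0.922), Ubald1 (0.921) and Rhog (0.92), Jun most like Ercc1 (0.855), Blnk (0.842) and Erf (0.836), Atf3 most like Acot9 (0.854), Il10rb (0.839) and Tmem205 (0.832), and Fos most like Slc38a1 (0.839), Parp11 (0.821) and Egr1. These values describe the 20 libraries and carry no test.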

How the data were processed

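Gene expression was deposited by the authors as raw, unnormalized counts in 1 table. The build mm10, edgeR, FastQC and Subread are named without versions or roles, per the submitters' processing notes; the annotation, strand setting and treatment of multi-mapping reads are not given in the sources used here. RNA was amplified with SMART-Seq v4, per the labels' protocols. Identifiers were matched to symbols with GENCODE M21 on GRCm38, which named 55394 of 55487, and the 93 others held 0.0012% of counts. Members and gene lists were chosen with earlier results of these data known.

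Testing used edgeR 4.0.16 (R 4.3.3): filterByExpr, TMM factors, 1 quasi-likelihood model over all 8 groups and 20 libraries, and Benjamini-Hochberg adjustment over 16595 genes with a threshold of 0.05. The procedure was tested on simulated data in which all libraries were independent and genes at low levels were left unchanged. That simulation therefore does not cover the pairing within mice or genes near 0. CPM used TMM-scaled library sizes. Alternatives were RLE factors, no filter, the compared groups alone, DESeq2 1.42.0, limma-voom 3.58.1, fits with the mouse as a replicate block, each mouse left out, the record reading of genotype and reduced sets of libraries. Both libraries of a mouse come from 1 animal, which pairs them; their deviations correlated at 0.09 to 0.23, above 0.1 in 8 of 10 mice. Named genes were the 10 members, up to 4 genes per list by p (the 2 nearest where none passed), and the 3 tested genes most like each called member, at a mean log2 CPM of 1 or more; some genes that this rule names are not reported here. Limits at 3 counts hold for counting error alone, as PCR copies of a molecule are not marked.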

Additional observations from a re-analysis of the deposited data

Results flagged for a closer look

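The genotype difference of Atf3 at end-stage differed between the region labels by -2.87 on the log2 scale in the test of that difference, with Atf3 lower, without passing, in brainstem-labelled mutants and higher in cortex-labelled mutants.

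The genotype difference of Jun in brainstem-labelled libraries differed between the stages by -1.82 on the log2 scale in the test of that difference, with end-stage mutants below end-stage controls and overlapping groups at 2 months.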

How the results depend on the processing

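Of 583 values of single members under the alternatives, 471 kept direction and side of the threshold, 74 lost and 10 gained a call, 25 were uncalled differences that changed sign, and 3 called differences reversed, all under the record reading of genotype: Egr1 (-0.94) and Jund (0.153) in 2-month cortex-labelled and Atf3 (0.497) in 2-month brainstem-labelled libraries. The causes were not tested.

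Counts of called members changed as follows. Under the record reading they were 2 and 1 for genotype at end-stage (cortex- and brainstem-labelled), 0 and 0 at 2 months, 0 for genotype by region at end-stage and 2 for genotype by stage in cortex-labelled libraries. With no filter they were 5 for genotype at end-stage in brainstem-labelled libraries, 4 and 2 at 2 months, 3 and 1 for genotype by region (end-stage and 2 months), 4 for genotype by stage in cortex-labelled libraries, 3 for stage in brainstem-labelled mutants, and 1 and 1 for stage in controls. With DESeq2 they were 4 for genotype at end-stage and 3 at 2 months in brainstem-labelled libraries, 2 and 1 for genotype by region, 2 for genotype by stage in cortex-labelled libraries, 2 for stage in brainstem-labelled mutants and 1 in brainstem-labelled controls. Over all genes DESeq2 called 356, 205, 90, 100, 239, 188 and 69 in these comparisons, in that order. In the compared groups alone the counts of called members were 0 for genotype in brainstem-labelled libraries at both stages, for genotype by region at end-stage, for genotype by stage in brainstem-labelled libraries and for stage in brainstem-labelled mutants. With the correlated replicate block in limma-voom the count was 0 for genotype in 2-month brainstem-labelled libraries; that block and the fixed one ended no other call. In the 8 end-stage libraries alone it was 1 for genotype in brainstem-labelled libraries and 0 for genotype by region. Without the mice whose genotypes differ it was 1 for genotype at end-stage in brainstem-labelled libraries and 0 for genotype at 2 months, genotype by region at end-stage, genotype by stage in brainstem-labelled libraries and stage in mutants.

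Leaving out each mouse in turn gave 3 to 5 called members for genotype in end-stage cortex-labelled and 1 to 2 in end-stage brainstem-labelled libraries, 2 in 2-month cortex-labelled and 0 in 2-month brainstem-labelled libraries. It gave 0 to 1 for genotype by region at end-stage and for genotype by stage under both labels, 1 to 2 for stage in cortex-labelled and 0 to 1 in brainstem-labelled mutants, and 3 to 4 for region.

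Over all genes, leaving out a mouse gave counts of 180 to 346 in end-stage cortex-labelled libraries, against 666 in all mice, and 462 to 677 in 2-month cortex-labelled libraries, against 904, where the record reading gave 1. Groups of 2 or 3 mice and counts near 0 for Fos, Fosb and Egr3 limit what can be seen.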
